A study of Homo sapiens with 36 samples.

Results

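The RNA profile of untreated U373neo cells was taken from the 9 arrays labelled as U373 Neo untreated, out of 36 arrays in the series. They hold 3 biological replicates with 3 arrays each, whose log2 intensities were averaged because they measure the same RNA. U373 is an established glioblastoma line that lacks the protein CC3, and U373neo is a single clone of it that carries the empty vector, so the replicates show the spread between harvests of 1 clone and not between clones. No UV and no other agent was given to these cells. The untreated clone U373cc3, which expresses CC3 from a stably transfected vector, was read on 9 further arrays and served to compare the levels of the clones and to set the serial ranges of the chips beside each other. The other 2 groups are the same clones 2 h after UV (20 J/m2 in the sample labels) and entered only the shared estimate of the spread. The study asked how CC3 acts on the response to DNA damage, and the untreated U373neo cells are its baseline.

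A cultured tumour line that divides steadily spends much of its messenger RNA on housekeeping machines: ribosomes that make protein, chaperones that fold it, proteasomes that degrade it, the respiratory chain and ATP synthase of mitochondria, and the enzymes of glycolysis. Transcripts of such machines are usually abundant, while those of transcription factors, receptors and signalling enzymes are usually rare. Receptors of smell and taste, defensins, interferons and most cytokines are made in specialised or stimulated cells. Glioblastoma is a tumour of the brain with traits of astrocytes, and its cell lines commonly keep only some of them.

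The deposited values were linear intensities of a single dye, between 16.9 and 65489 on these 9 arrays, with a median of 895 to 896 per array. Of 30968 probes, 12300 (39.7%) carried values on the untreated arrays and 18668 were blank on all of them, for a reason not given in the sources used here. A blank probe therefore says nothing about the level of its transcript. A gene symbol was given for 17397 probes, of which 9311 carried values, and these stood for 8430 genes of the 15207 named on the array. Another 2989 probes with values had no symbol.

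Each gene was placed by its brightest probe, and its percentile is the share of the 12300 probes with values that were dimmer. Brightness depends on the sequence of a probe as well as on the amount of RNA, so the order is one of array signals and not of transcripts per cell. The 825 genes with exactly 2 probes show how coarse that order is: their probes differed by a median of 2.47-fold, 25% of them by 5.17-fold or more, and 274 of them (33.2%) by more than 4-fold. The spread between replicates was far smaller. The median SD of a probe between the means of the 3 biological replicates was 0.118 on the log2 scale, which is 8.54% of the intensity. The median SD between single arrays of the same RNA was 0.151. The first is a spread of means of 3 arrays and the second of single arrays, so their sizes cannot be compared directly. Replicate means correlated across probes with r between 0.992 and 0.994. Genes of middle percentile thus cannot be ordered from single probes, whereas whole families at the opposite ends can be described by their counts.

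Intensities spread over 3 orders of magnitude and were limited at the top. The median probe had an intensity of 887, 5% of probes lay below 128 and 5% above 16515. A mean under 200 was found for 1828 probes (14.9%), 200 to 1000 for 4622, 1000 to 10000 for 4725 and 10000 to 60000 for 1074. The remaining 51 probes exceeded 60000, near the upper limit of the scanner, and these stood for 31 named genes and 20 probes without a symbol. The SD between replicates fell from 0.140 log2 among probes under 200 to 0.0927 among those of 10000 to 60000. For the probes over 60000 it was 0.0243, and their levels are lower bounds with no order among them.

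The 30 brightest genes, all over 60000, came in large part from housekeeping machines. Mitochondrial ATP production gave 8 of them: the cytochrome c oxidase subunits COX7B, COX7C, COX4I1 and COX5A, the ATP synthase subunits ATP5PO, ATP5F1C and ATP5F1B, and NDUFA1 of complex I. The proteasome gave its core subunits PSMA2, PSMA7, PSMB1 and PSMB5. Glycolysis gave ENO1, GPI and LDHA, and protein synthesis gave the elongation factor EEF2, the growth-related protein TPT1 and the ribosomal protein RPL8.

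The other genes of that group were ODC1, the rate-limiting enzyme of polyamine synthesis, MIF, a secreted cytokine, FBL, the nucleolar RNA methylase fibrillarin, the RNA-binding proteins NONO, PTBP1, KHDRBS1 and CIRBP, PCNA, the sliding clamp of DNA replication, APEX1, the abasic site endonuclease of base excision repair, ANP32B, MLLT11 and MRFAP1. ODC1 read 65489, 65487 and 65487 in replicates 1, 2 and 3, and COX7B read 65486 in each. Values this close to one another are at the ceiling and carry no measure of the spread. PCNA, further from it, read 61924, 64238 and 64716. APEX1, the last of the 30, read 64278, 60797 and 56670, with replicate 1 the highest.

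The 10 dimmest genes had mean intensities between 75.8 and 85.4. They were IKZF2, a lymphoid transcription factor, CDC14A, a phosphatase, ETNK2, ethanolamine kinase 2, MIR600HG, a microRNA host transcript, ADGRL3, an adhesion receptor, OTOGL, a protein of the inner ear, FDPS, the farnesyl diphosphate synthase of sterol synthesis, ZNF350, RUFY2 and SMPDL3B. IKZF2 read 61.3, 77.3 and 88.8 in the 3 replicates. FDPS read 96.2, 92.9 and 64.9, although the enzyme belongs to a pathway every dividing cell uses. Their replicates overlap with one another, and no order was read among them.

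Among 37 lists of genes, those of the protein-making and energy machines lay highest. Over all 8430 genes the median percentile was 54.6 ± 0.217 (SD of the medians of the 3 replicates, as for the lists below). Cytosolic ribosomal proteins had a median percentile of 95.1 ± 0.343, with values for 28 of 32 named members and 21 of them at or above the 90th percentile. Genes of oxidative phosphorylation, which are subunits and assembly factors of the respiratory chain and ATP synthase, had a median of 94.3 ± 0.129, with 46 of 68 measured members at or above the 90th percentile. Translation factors had a median of 92.4 ± 1.30 over 25 genes and chaperones of 91.2 ± 0.494 over 28. All 13 measured cytosolic chaperones lay at or above the 75th percentile. The proteasome (89.5 ± 0.215 over 36 genes), the actin cytoskeleton (88.4 ± 0.426 over 30) and glycolysis (88.2 ± 0.154 over 14) followed. Adjacent medians among these lists lie within the difference of probes of the same gene and were not ordered.

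**Figure D1:**
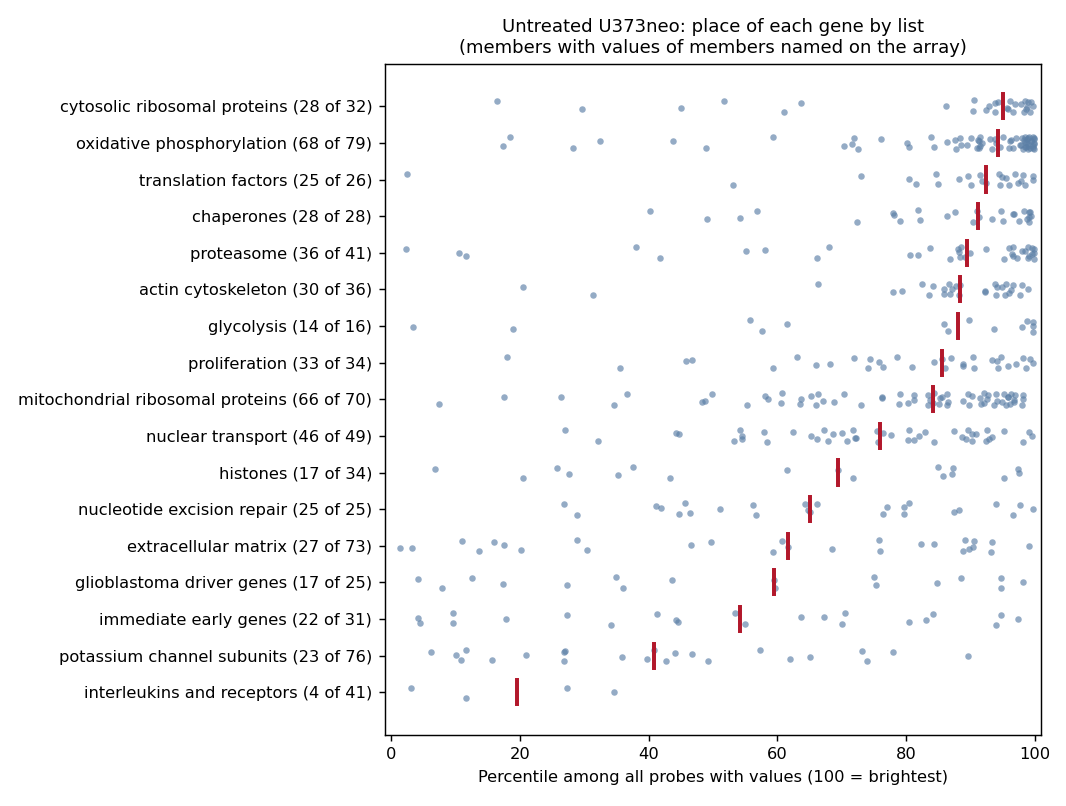
Percentile of each measured gene (points; x axis, share of the 12300 probes that were dimmer, in percent) by gene list (rows, with the number of members with values of those named on the array), and the list median (red bar). Ribosomal, oxidative phosphorylation and translation genes crowd above the 90th percentile with a few members far below, while potassium channel and interleukin genes have few members with values and low medians of 40.9 and 19.5.

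Ribosomal proteins form the small and large ribosomal subunits and are made in equal numbers per ribosome. RPL4 of the large subunit read 51870, 50769 and 56247 in the 3 replicates, at the 99.4th percentile. RPS16 of the small subunit read only 372.8, 351 and 377, at the 29.6th. RPL39L, a paralog of a large-subunit gene that is best known from testis, read 212, 185 and 240, the lowest of the list. Members of one complex thus spanned almost the whole range of the array, and each of these levels repeated closely over the replicates. Values of genes with many processed pseudogenes, as ribosomal protein genes have, can include signal from near-identical copies.

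The respiratory chain passes electrons from complex I to cytochrome c oxidase, and ATP synthase uses the resulting gradient. NDUFB1, an accessory subunit of complex I, read 51568, 57450 and 53691, and NDUFB10 read 43323, 43951 and 41078. NDUFA13 read 34266, 37465 and 35747. At the other end ATP5PF, a peripheral-stalk subunit of ATP synthase, read 238, 215 and 237, and NDUFAF3, an assembly factor of complex I, read 244, 207 and 207. The 66 measured mitochondrial ribosomal protein genes, which serve translation of the few proteins encoded in mitochondrial DNA, had a lower median percentile than this list, 84.3 ± 0.654. MRPL58 was among the brightest of them with 31849, 33856 and 31318, and MRPL34 the dimmest with 132, 156 and 145.

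Chaperones fold new and damaged proteins. CANX, a lectin chaperone of the endoplasmic reticulum, read 62295, 54315 and 54886, and CCT3, a subunit of the cytosolic chaperonin, read 56232, 49629 and 47862. In both the first replicate was the highest. HSPA5, the major HSP70 of the endoplasmic reticulum, read 618, 584 and 531, at the 40.2nd percentile. Within glycolysis ENO1 and GPI were near the scanner limit, whereas ALDOA, the aldolase of the pathway, read 226, 235 and 240 and the glucose transporter SLC2A1 read 133, 125 and 102. The low values of ALDOA, an abundant enzyme in most cells, were stable over replicates, and whether they are levels of the transcript or of the probe was not tested.

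Genes of the dividing cell were bright. The 33 measured genes of the proliferation list had a median percentile of 85.6 ± 0.546, and 12 lay at or above the 90th percentile. TYMS, the thymidylate synthase that makes a DNA precursor, read 53063, 50499 and 52128. CDK4, the cyclin-dependent kinase that opens the G1 to S transition, read 31417, 33102 and 35342. CCNE2 read 440, 452 and 529 and UBE2C, a ubiquitin-conjugating enzyme of mitotic exit, 217, 228 and 233, the lowest of the list. H2AX, the histone variant that is phosphorylated at DNA breaks, read 24798, 25130 and 30681 and was the brightest of 17 histone genes with values (34 named, median percentile 69.4 ± 0.646). H2BC11, a replication-dependent histone gene, read 159, 124 and 138.

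Nuclear transport and nucleotide excision repair are the machines the question of the study concerns. The 46 measured nuclear transport genes had a median percentile of 76.0 ± 0.763. RCC1, which charges the GTPase Ran inside the nucleus, read 57833, 58571 and 61725, and KPNB1, the import receptor importin beta 1, read 54564, 48330 and 43832. XPO7 was the dimmest at 314, 379 and 295. Nucleotide excision repair, which cuts out UV lesions, had values for all 25 named members and a median of 65.03 ± 2.08. RPA2, a subunit of the single-strand binding complex, read 28116, 26739 and 28665. DDB2, the lesion sensor that the study followed as a protein, read 910, 937 and 943 at the 51.1st percentile. GTF2H3, a subunit of the repair and transcription factor TFIIH, was the dimmest with 307, 308 and 366. None of the 25 lay below the 25th percentile, and 11 lay at or above the 75th.

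Of the other proteins that the study followed, CDKN1A, an inhibitor of cyclin-dependent kinases, read 2728, 3328 and 3170. NXN, a redox regulator of Wnt signalling, read 1859.5, 2032 and 1958, and FOS, which with JUN proteins forms AP-1, 453, 456 and 430. The probes of HTATIP2, which encodes CC3, and of VIM, which encodes vimentin, were blank. The absence of CC3 on which the line was chosen could therefore not be checked in these arrays. The paper reports from its array analysis a large rise of vimentin RNA in U373cc3, which the values used here cannot show. Immediate early genes, the class that FOS belongs to, had a median percentile of 54.2 ± 1.22 over 22 genes, close to that of all genes. JUND, an AP-1 subunit, was the brightest at 26569, 23806 and 27280, and NR4A1, a nuclear receptor, the dimmest at 132, 112 and 128.

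The label of the cells was set against markers of the lineages the culture could hold. Of 23 named markers of astrocytes and glioma, 10 carried values, between 174 and 16635, and 13 were blank, among them GFAP, S100B, AQP4, NES, SOX2, OLIG2, VIM and CD44. GLUL, the glutamine synthetase of astrocytes, which many other cells make too, was the brightest at 17055, 15375 and 17473. NFIB, a glial transcription factor, read 9073, 7860 and 7014, SOX9 774, 729 and 792, and EGFR, the receptor often amplified in glioblastoma, 558, 459 and 439. CHI3L1, a secreted glycoprotein, lay at 1959 ± 255, NFIA, another glial factor, at 1519 ± 259.9 and PTPRZ1, a receptor phosphatase, at 342 ± 53.9 (SD, n = 3). The glutamate transporter SLC1A2 and the gap junction protein GJA1 lay lower, at 249 ± 33.6 and 174 ± 21.7 (SD, n = 3). GFAP, AQP4 and S100B, which define astrocytes, were thus blank, and these arrays neither bear out nor contradict the astrocytic label.

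Neuronal markers were the best covered, with values for 12 of 15. ENO2, the neuronal enolase, read 6165, 6857 and 6629, SNAP25, a protein of synaptic vesicle fusion, 5746, 6179 and 6226, and TUBB3, the beta-tubulin of neurons, 5332, 4893 and 4924. NEFH, the heavy neurofilament, read 4343, 4686 and 4764, while the light one, NEFL, lay at 270.4 ± 19.0, the filament protein INA at 2699 ± 315 and STMN2, a regulator of microtubules, at 636 ± 94.9 (SD, n = 3). The vesicle proteins SYT1 and SYP read 448 ± 24.6 and 419 ± 29.9 (SD, n = 3), GAD1, which makes GABA, 192 ± 10.6 and MAP2, a dendritic microtubule protein, 155 ± 6.96. SLC17A7, a vesicular glutamate transporter, lay at 2000.6 ± 344. Markers of the cytoskeleton and of synapses thus both lay on either side of the median probe (887).

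**Figure D2:**
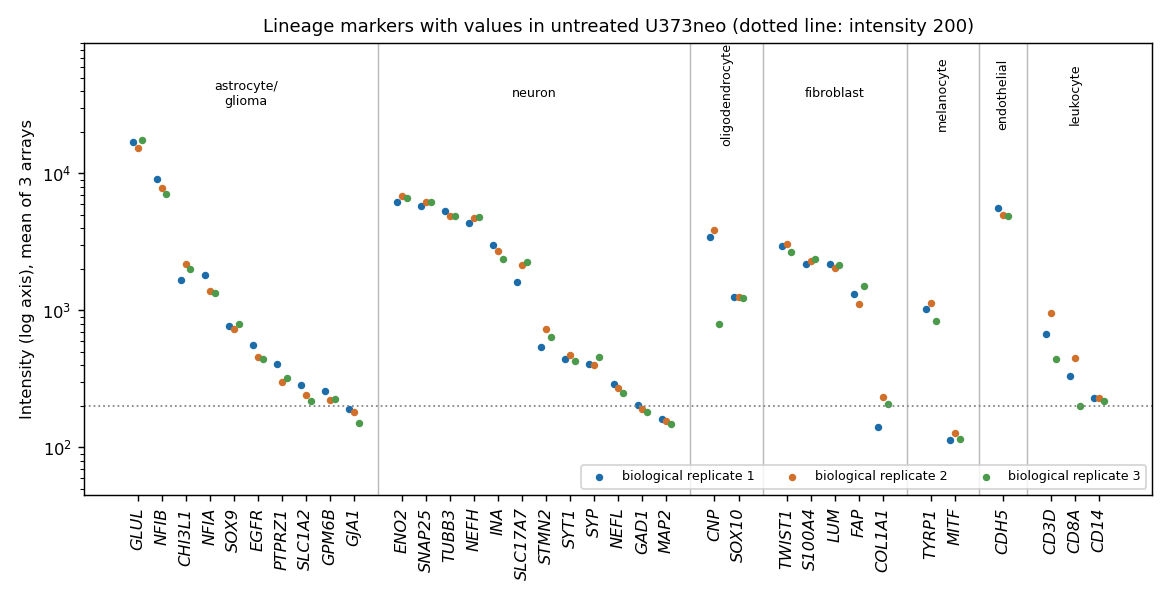
Intensity (log axis) of each lineage marker with values, by biological replicate (colours; each point is the mean of 3 arrays), ordered by level within a lineage. GLUL, NFIB, ENO2, SNAP25, TUBB3, NEFH and CDH5 read 4343 or more in every replicate and the genes drawn under leukocyte and melanocyte 1124 or less (SOX10, also a melanocyte marker, is drawn under oligodendrocyte only), and the third replicate of CNP stands far below the first and second.

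Markers of other lineages were mostly blank, as were those of astrocytes and glioma (13 of 23). Of all named genes 55.4% carried values, and a blank says nothing about the level. All 10 named epithelial markers, among them EPCAM and CDH1, were blank, as were 7 of 8 endothelial markers, and 8 of 11 leukocyte markers including PTPRC, the pan-leukocyte antigen CD45. The exceptions were CDH5, the VE-cadherin of endothelium, at 5631, 4971 and 4883, and the leukocyte genes CD3D (676, 955 and 442), CD8A (330, 453 and 199) and CD14 (230, 228 and 219). Of 11 named fibroblast markers 5 had values, led by TWIST1, a mesenchymal transcription factor, at 2928, 3042 and 2686, while COL1A1 read 140, 234 and 206. The other measured ones were S100A4 at 2271 ± 90.8, LUM at 2115 ± 68.8 and FAP, a surface protease, at 1311 ± 188 (SD, n = 3). SOX10, a factor of neural crest and oligodendrocytes, read 1252, 1248 and 1238, and MITF, the master regulator of melanocytes, 113, 128 and 115. In RNA from whole cultures, fewer cells of a type and less RNA per cell cannot be told apart, and whether another cell type contributed RNA was not tested.

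One marker shows how a single array can set a value. CNP, a myelin enzyme, read 3427, 3837 and 792 in the 3 replicates. In the third replicate 2 arrays read 3279 and 2931, close to the other replicates, and the remaining array read 51.7. The mean of 2685 ± 1652 (SD, n = 3) and its percentile of 69.0 therefore rest on 1 array, which is the only one of the 9 from its range of chip serial numbers.

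Genes that drive glioblastoma were spread over the whole range, with values for 17 of 25 named. CDK4 (above) lay highest, followed by MYC, the transcription factor, at 17141, 14672 and 16003 and CDKN2C, an inhibitor of CDK4 and CDK6, at 15781, 15834 and 15948. Another inhibitor, CDKN2B, lay far lower, at 460 ± 19.2 (SD, n = 3). IDH2, a mitochondrial isocitrate dehydrogenase, lay at 7916 ± 944, and MTOR, the growth-controlling kinase, read 7282, 4996 and 5042, with replicate 1 the highest (adjusted p = 0.0337, limma F test). ATRX, a chromatin remodeller, lay at 1357 ± 103, PIK3R1, the regulatory subunit of PI3 kinase, at 669 ± 34.4 and AKT2 at 148 ± 8.99 (SD, n = 3). HRAS read 3164, 2750 and 3125 and AKT1, the kinase downstream of PI3 kinase, 1589, 1259 and 1262. RB1, the retinoblastoma tumour suppressor, read 232, 211 and 213, MET 198, 160 and 187, TERT, the telomerase catalytic subunit, 361, 328 and 307, and PIK3CA, the catalytic subunit of PI3 kinase, 132, 121 and 118. The probes of PDGFRA, NF1, MDM2, CDKN2A and MGMT were among the 8 blank ones, and 7 members of the list were not analysed here.

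Matrix genes were poorly covered: 27 of 73 named members carried values, 1 of 13 collagens among them. The brightest were P4HB, the beta subunit of prolyl 4-hydroxylase, at 51993, 45550 and 44116, and the tetraspanin CD9 at 12870, 13435 and 13392. SPP1, the secreted protein osteopontin, read 102, 103 and 101 and the proteoglycan SDC2 119, 115 and 118, at the 1.30th and 3.22nd percentiles. Annexins and S100 proteins, which bind calcium, ranged from S100A2 at 34658, 32311 and 32604 to ANXA1 at 110, 149 and 151. TFRC, the transferrin receptor that imports iron, read 12891, 13926 and 13696, while HMOX1, the haem oxygenase induced by stress, read 357, 342 and 347.

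The share of members with values differed widely between families, which describes the deposited table and not the level of a blank transcript. Among 72 families of genes that share the letters of their symbol and have at least 20 named members, the share with values was lowest for olfactory receptors of the OR stem (3.70%, 2 of 54), taste receptors (5%, 1 of 20), long intergenic RNA genes (10.8%, 7 of 65) and keratin-associated proteins (10.8%, 4 of 37). It was highest for mitochondrial ribosomal proteins of the small (95.8%, 23 of 24) and large subunit (93.6%, 44 of 47) and for RNA polymerase subunits (93.1%, 27 of 29). None of 8 type I interferon genes, 2 of 29 chemokines and 4 of 41 interleukins and their receptors carried values, against 55.4% of all named genes. Of those that did, the olfactory receptor OR5P3 read 432, 582 and 693, the chemokine CCL21 166, 220 and 107, and the cytokine gene IL12A 114, 120 and 113. The defensin DEFB126 was brighter, at 1125, 1579 and 1687, and in it the first replicate was the lowest.

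Among the 94 families with at least 10 genes with values, the brightest by median percentile were the ribosomal RPL genes (95.1), the cytochrome oxidase COX genes (94.6), the complex I genes NDUFA (94.2) and NDUFB (91.2) and the proteasome regulatory subunits PSMD (89.5). The dimmest were interleukin and receptor genes of the stem IL (19.2), cytochrome P450 genes (19.4), the small GTPase regulators ARHGAP (28.0) and ARHGEF (28.1) and the phosphodiesterases PDE (29.6). Except for the IL genes, whose brightest member IL11RA lay at the 49.1st percentile, each of these families held a member above the 75th percentile. CYP51A1, the sterol demethylase, read 4673, 4578 and 5528, ARHGEF2, a microtubule-bound activator of small GTPases, 7159, 6853 and 6671, and PDE4DIP, a centrosomal anchor named for its partner, 4730, 4924 and 5245. The place of PDE4DIP rests on its brightest probe and moved by 44.7 percentiles when all its probes were averaged.

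Numbered zinc finger (ZNF) genes, mostly repressors of the KRAB type, were the largest list, with 214 of 385 named members carrying values. Their median percentile was 34.1 ± 0.144, with 72 below the 25th percentile and 3 at or above the 90th. ZNF428 read 16993, 16436 and 16864 and ZNF195 9958, 11834 and 10499, while ZNF655 read 89.2, 89.5 and 86.2. Potassium channel subunits had values for 23 of 76 members, with a median percentile of 40.9 ± 2.46. KCND3, a subunit of A-type currents, stood out at 9113, 8511 and 8518.

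Promoters were searched for 6 short motifs in the RefSeq table of the build GRCh38.p14, which gives 250 bases before and 50 bases after the start of each gene. It held a promoter for 7040 of the 8430 genes. The letters were CCGGAAG for ETS factors, AAGATGGCG for YY1, GGGCGG for the GC box, TATAAA for the TATA box and CCAAT for the factor NF-Y, beside the GC-rich NRF1 site, which is given by name, on either strand, and none of these motifs holds another, although matches may overlap. Among genes with values 20.3% held the ETS letters, against 8.15% of genes named without values and 10.7% of all 27305 promoters. For TATAAA the order was turned, with 5.47%, 11.9% and 12%. Genes at or above the 90th percentile held the ETS letters at 24.3% and the NRF1 letters at 16.9%, and those below the 25th percentile at 15.9% and 8.18%.

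By list, the ETS letters stood in 39.7% of mitochondrial ribosomal protein promoters (23 of 58), in 31.6% of oxidative phosphorylation promoters (18 of 57) and in 42.5% of those of the zinc finger genes, whose median percentile is low (79 of 186). The YY1 letters stood in 20.7% of mitochondrial ribosomal protein promoters, against 4.62% of genes with values. Histone promoters held CCAAT in 75% (12 of 16) and TATAAA in 62.5% (10 of 16), against 37.5% and 5.47% of genes with values. CCAAT also stood in 51.6% of proteasome promoters (16 of 31) and in 50% of those of the zinc finger genes. The ETS letters were thus frequent in families of high and of low median percentile. The shares are descriptions of letters in a window, with no test, and the matching letters are not shown to be bound.

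**Figure D3:**
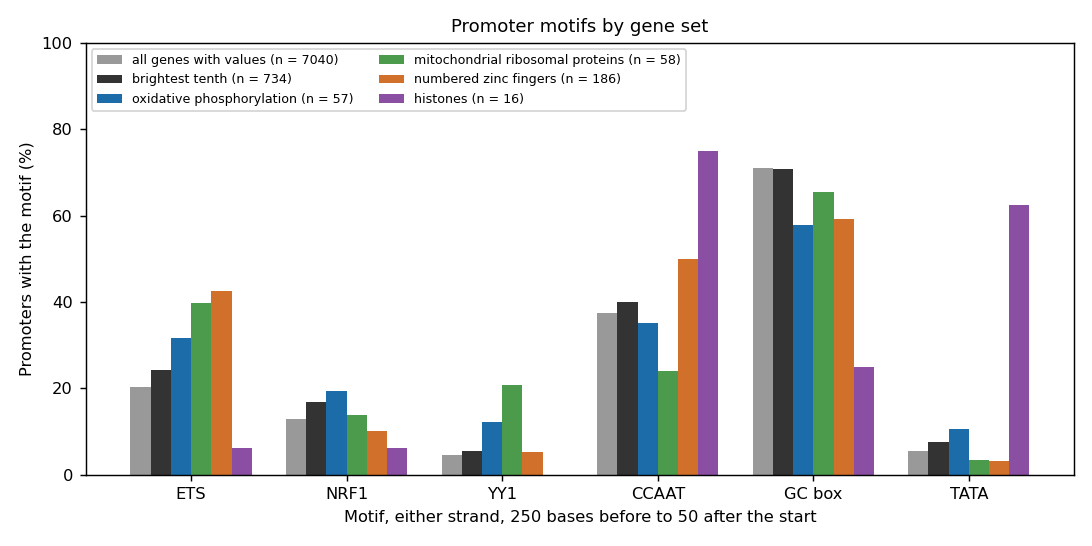
Share of promoters (y axis, percent) that hold each of 6 motifs on either strand, for all genes with values, genes at or above the 90th percentile and 4 gene lists. TATAAA stands in 62.5% of histone promoters and in 10.5% or fewer of the promoters of the other sets, and the ETS letters reach 42.5% in zinc finger genes.

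To show these motifs in place, the 100 bases before the start are given for the brightest member of a list whose stretch holds its motif, 5′ to 3′ on the strand of the gene, with that motif in capitals and all other letters, other motifs included, in lower case. The stretches were chosen after the shares were seen. NDUFA1 (ETS letters, reverse strand of the motif) lies at chrX:119871732-119871831 on the plus strand, ATP5PO (NRF1) at chr21:33915805-33915904, MRPL36 (YY1, reverse strand of the motif) at chr5:1799838-1799937, PSMA2 (CCAAT) at chr7:42932175-42932274, H2AX (TATAAA) at chr11:119095466-119095565 and ZNF195 (ETS, reverse strand of the motif) at chr11:3379147-3379246, the last 5 on the minus strand.
NDUFA1: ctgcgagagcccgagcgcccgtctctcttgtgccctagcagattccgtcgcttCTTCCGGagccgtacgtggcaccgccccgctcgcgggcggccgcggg
ATP5PO: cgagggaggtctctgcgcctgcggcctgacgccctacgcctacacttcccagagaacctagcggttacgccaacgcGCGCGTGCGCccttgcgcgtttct
MRPL36: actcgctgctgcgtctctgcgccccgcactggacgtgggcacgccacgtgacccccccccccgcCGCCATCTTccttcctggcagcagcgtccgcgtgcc
PSMA2: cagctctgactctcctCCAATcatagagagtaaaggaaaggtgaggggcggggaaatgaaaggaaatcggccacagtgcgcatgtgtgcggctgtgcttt
H2AX: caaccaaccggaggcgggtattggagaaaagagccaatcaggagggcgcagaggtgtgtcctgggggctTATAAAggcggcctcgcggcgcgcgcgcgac
ZNF195: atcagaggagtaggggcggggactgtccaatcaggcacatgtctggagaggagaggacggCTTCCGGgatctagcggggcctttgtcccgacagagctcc
The ETS letters thus stand upstream of NDUFA1, near the scanner limit, and of ZNF195, at the 91.6th percentile of a family with a low median. MRPL36 lay at the 96.8th percentile and H2AX at the 97.5th.

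The spread between the 3 biological replicates was tested with an F test in limma over the 9 single arrays. It called 341 of 12300 probes (2.77% at an adjusted p under 0.05 by Benjamini-Hochberg), 188 of them with at least 1.5-fold between the highest and the lowest replicate, and 2868 had an unadjusted p under 0.05. Since the units are arrays of the same RNA preparations, the test is about these preparations. Replicate 1 lay outermost at 303 of the 341 probes, with 223 higher and 118 lower than the mean of replicates 2 and 3. The share of all 12300 probes at which it lay outermost was not computed. The 341 probes were also chosen by the spread of these same values. The count of 303 alone therefore does not set replicate 1 apart. The calls rested on replicate 3 as well, as the pairs of replicates show. Replicate 3 differed from replicate 1 at 319 probes, replicate 2 from replicate 1 at 18, and replicates 2 and 3 at none (limma, with 1091 at an unadjusted p under 0.05).

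All 3 arrays of replicate 1 came from a range of chip serial numbers (C) that holds no other array of untreated U373neo, while those of replicates 2 and 3 came from range A, but for 1 of range B. Serial range and replicate 1 cannot be told apart within these 9 arrays. One comparison reached outside them. Replicate 3 of untreated U373cc3 had 1 array in range C and 2 in range B, all of the same RNA. The range C array deviated from its sister arrays in the same direction as replicate 1 of U373neo deviated from replicates 2 and 3 at 238 of the 341 probes (69.8%), against 62.7% of all 12300 probes. Across the 341 probes the deviations correlated with r = 0.459, and with r = 0.358 over all probes. Both are descriptions across probes that share these arrays, and range C is set against A and B in U373neo but against B in U373cc3. Replicate means, as deviations from the mean of their clone, went otherwise. Replicate 1 of U373neo correlated at -0.191 with replicate 3 of U373cc3, and at 0.274 with replicate 1 of U373cc3, all of range A. Whether serial range sets these deviations was not tested. When arrays of range A only were fitted (replicates 2 and 3), no probe passed, with 1055 at an unadjusted p under 0.05.

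**Figure D4:**
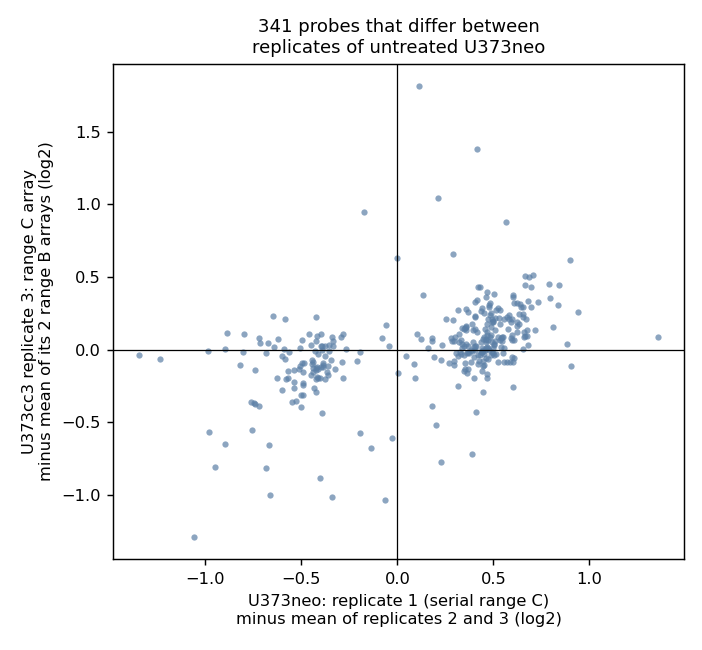
For the 341 probes that differed between replicates of untreated U373neo, the log2 deviation of replicate 1 (all arrays of serial range C) from the mean of replicates 2 and 3 (x axis) against that of the range C array of U373cc3 replicate 3 from its sister arrays of range B (y axis). The points fall mostly in the lower left and upper right, 238 of 341 with the same sign.

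The 10 genes with the smallest p that differed at least 1.5-fold had adjusted p-values between 0.005 and 0.0097 (limma F test). APP, the amyloid precursor protein, read 5261, 13681 and 11203 in replicates 1, 2 and 3. Replicate 1 was the lowest on each of its 3 arrays. UBR4 and HUWE1, giant ubiquitin ligases, were highest in replicate 1, at 10164, 5256 and 5628 for UBR4 and 12488, 7124 and 7134 for HUWE1. ARID1A, a subunit of the BAF chromatin remodelling complex, read 3799, 1898 and 2194, and MACF1, a linker of actin and microtubules, 1807, 1038 and 922. In these genes the arrays of replicate 1 did not overlap with the others.

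GSTZ1, an isomerase of tyrosine breakdown, was the exception in its order, at 1216, 582 and 996, with replicate 2 the lowest. The nucleolar protein NPM3 (1488, 2741 and 2774) and MIDN (2186, 3639 and 3575) were lowest in replicate 1. FLII, an actin-binding protein (1243, 686 and 908), and POLR3D, a subunit of RNA polymerase III (3296, 2418 and 1803), were highest in it. Of the 10 genes, 7 deviated in the same direction on the range C array of U373cc3, against 62.7% of all 12300 probes. NPM3, MIDN and UBR4 deviated in the other direction, so the count does not set these genes apart.

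**Figure D5:**
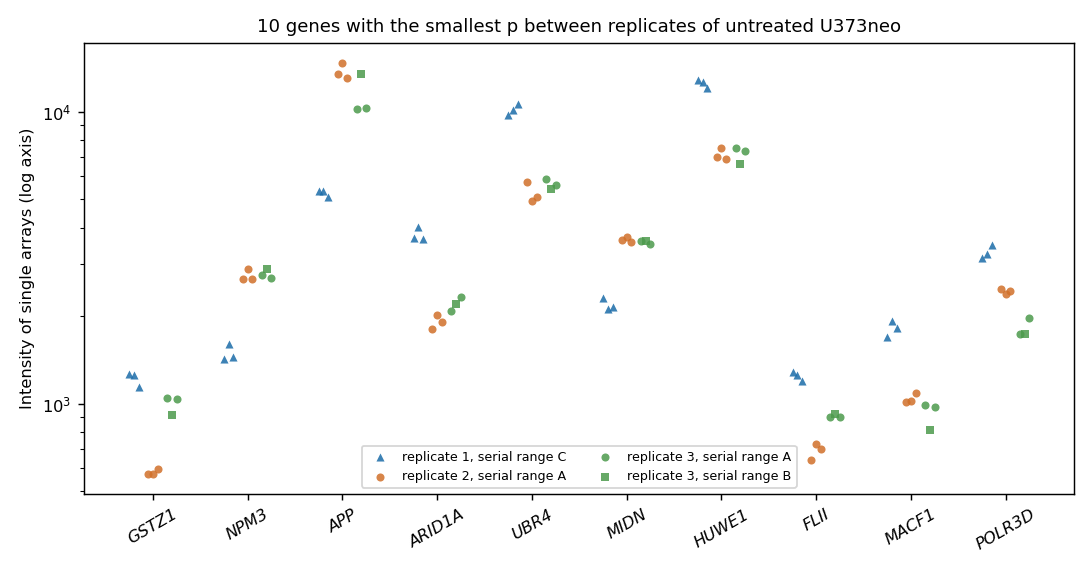
Intensity of single arrays (log axis) for the 10 genes with the smallest p between replicates, by biological replicate (colour) and serial range (symbol). The arrays of replicate 1 do not overlap with those of replicates 2 and 3 in any of the 10 genes, and in GSTZ1 replicate 2 is the lowest.

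Named genes that were higher in replicate 1 were longer than those that were lower. The 178 genes higher in it had a median span on the genome of 48.3 kb and the 79 lower ones 19.8 kb, against 30.8 kb for all genes with values, and 27.7%, 7.59% and 18.2% of them spanned 100 kb or more. These are counts without a test. Over all genes, the deviation of replicate 1 from the others was larger in the longest of 5 equal groups by length (median 0.0471 log2) than in the shortest (-0.00086), both small beside the SD between replicates. Of the bright machines the test called 0 of 28 ribosomal, 1 of 68 oxidative phosphorylation, 1 of 36 proteasome and 0 of 14 glycolysis genes, against 257 of 8430 genes (3.05%). Probes near the scanner limit could not vary there. Of 28 chaperones 2 were called, HSPA9, the mitochondrial HSP70, among them, at 556, 1133 and 1013 (adjusted p = 0.015, limma).

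The baseline of U373neo was set beside that of the untreated clone U373cc3. Mean levels of the clones correlated across probes with r = 0.979. At the 51 probes over 60000 a rise could not show. Single levels often differed: limma called 4698 of 12300 probes (38.2%), 2564 higher in U373cc3 (20.8%) and 2134 lower (17.3%). Of the 8430 genes 40.0% were called. Since each state of CC3 is 1 clone, clone and CC3 cannot be told apart. Immediate early genes differed often, with 15 of 22 higher and 2 lower in U373cc3, and of the zinc finger genes 72 of 214 were higher and 19 lower, against 22.0% of all genes higher and 18.1% lower. Of 68 oxidative phosphorylation genes 8 were higher and 12 lower, and 48 did not pass the test.

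Some of the levels given above differed between the clones by at least 2-fold. Among the markers, driver genes and followed proteins, 7 genes passed the test with such a difference. NXN fell from 1949.6 ± 86.5 in U373neo to 143 ± 12.9 in U373cc3 (SD, n = 3 each; adjusted p = 7.96e-11, limma), DDB2 from 930.3 ± 17.5 to 349 ± 29.0, HRAS from 3013 ± 229 to 1362 ± 126 and LUM, a matrix proteoglycan, from 2115 ± 68.8 to 988 ± 26.3. FOS rose from 446 ± 14.4 to 5930 ± 442 (13.3-fold, adjusted p = 7.96e-11), GPM6B, a membrane glycoprotein, from 234 ± 20.2 to 3464 ± 215, and TYRP1, a melanocyte enzyme, from 994 ± 144 to 1998 ± 190. The 7 genes were chosen by this test, so a distance between the clones beyond their spread follows from the choice. The values are RNA signals. For untreated U373 clones the paper reports lower DDB2 protein but no matching change of FOS or NXN protein. CDKN1A passed below 2-fold, rising from 3075 ± 311 to 4070 ± 456 (SD, n = 3 each; adjusted p = 0.00534, limma). For its protein the paper reports a somewhat lower level in U373cc3.

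The other named genes that passed with at least 2-fold were extremes of their lists or of the array, and ANXA1 moved furthest. It rose from 137 ± 23.1 in U373neo to 4224 ± 311 in U373cc3 (SD, n = 3 each; 31.1-fold, adjusted p = 5.07e-10, limma). SPP1 rose from 102 ± 0.908 to 2095 ± 97.4 (20.5-fold) and SDC2 from 117 ± 2.39 to 1639 ± 77.9. RPL39L rose 5.50-fold, ADGRL3 5.25-fold, HMOX1 3.88-fold, IL12A 3.70-fold and SMPDL3B 2.54-fold. KCND3 fell from 8714 ± 346 to 1949.8 ± 166, and RPS16 fell from 367 ± 14.1 to 174 ± 24.4. Several of the lowest levels of U373neo were thus not shared by the other clone. Genes named for a low level in U373neo had more room to rise than to fall, so these rises are partly set by the choice. A probe had values on all untreated arrays of both clones or on none. Whether probes dim in U373neo have values only through U373cc3 was not tested.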

How the data were processed

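According to the study's methods, RNA was harvested in triplicate from untreated U373neo cells, amplified with Cy5 and hybridized to Phalanx Human OneArray chips, 3 per RNA, which were read on a GenePix scanner. The deposited intensity values are linear and had been quantile normalized by the authors in GeneSpring GX, and no background values were used. Whether the triplicates came from separate cultures is not stated, so p-values measure only the spread between these samples. Precision is limited by the number of arrays.

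For each replicate, log2 values were averaged over its 3 technical arrays. Probes carried values at 12300 positions, and none was removed. Platform symbols were updated through RefSeq (GRCh38.p14): of 9311 named probes with values, 7837 were current, 1431 were replaced and 43 were unmatched. The brightest probe stood for a gene. Dim probes, left out in an alternative, had a mean intensity under 200, and near the scanner limit means over 60000. Differences between replicates were tested over the 9 arrays with limma 3.58.1 (F test, eBayes, R 4.3.3), and the clones over the 12 replicate means of 4 groups, with Benjamini-Hochberg adjustment over all probes and a threshold of 0.05. The 698 probes with values on untreated arrays only were fitted on the 6 untreated replicates.

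The rule for named genes took the 30 brightest and 10 dimmest, at most 4 extremes of each list, all measured markers, driver genes and followed proteins, the 10 with the smallest F-test p and at least 1.5-fold range, and 2 of each extreme family. Some extremes of lists and family members were left out of the text. The members, the lists and the motifs were chosen with earlier results of these data known. The procedure was tested on simulated data. Alternatives were serial range, centring, quantile normalization, dim probes, an intensity trend, the methods' t-test, probe averaging and leaving out replicates.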

Additional observations from a re-analysis of the deposited data

How the results depend on the processing

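Of 341 probes that differed between replicates of untreated U373neo, 0 passed in serial range A alone and 791 with an intensity trend and robust fit, and leaving out a replicate gave 0 to 319 (0 without replicate 1, 319 without replicate 2 and 18 without replicate 3). Of the calls, 329 were shared with the trend and robust fit. The 10 genes named for differing passed in 5 or 6 of 8 alternatives each. Of these, centring and quantile normalization acted on values already quantile normalized and hardly changed the calls (341 and 342). Every gene lost its call in range A alone and without replicate 1. Both leave only replicates 2 and 3, where no probe passed, so these losses are not particular to the 10 genes. The median SD between replicates, 0.118 log2, was 0.0671 without replicate 1 and up to 0.116 without another.

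The 4698 calls between the clones became 3050 with the methods' t-test after Benjamini-Hochberg (4935 unadjusted) and 3916 to 4958 without single replicates. With serial range as a term 5516 passed, and 4391 of the main calls were among them. This range term, and single arrays without it (5000 calls, chosen after seeing the data), treat arrays of a replicate as correlated. Replicate numbers did not pair the samples throughout (same-number correlations 0.274, -0.103 and -0.0169), and a block by replicate number gave 4141 calls. Under unlike numbers, replicate 3 of U373cc3 correlated at 0.250 with replicate 2 of U373neo, and replicate 2 of U373cc3 at 0.241 with replicate 3 of U373neo. The remaining pairs of unlike number were negative. A block by these pairs was not fitted. Directions were compared only for the 7 markers, driver genes and followed proteins that passed with at least 2-fold, and none of them reversed. For the 4698 calls, numbers and overlaps were compared and directions were not.

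Median percentiles of lists moved by at most 10.0, when all probes of a gene were averaged, and by at most 3.90 in range A alone. Single genes moved by up to 44.7 (PDE4DIP, all probes averaged), 10.2 (KRTAP5-9, range A) and 9.17 (CNP, without replicate 3), and 0.415 at most without the probes over 60000. Levels near the scanner limit are lower bounds, and dim probes have no measured background here.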

Other observations

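Beside CNP and the genes that differed between replicates, leukocyte, interleukin and drug-metabolism genes were among those that repeated poorly. IL27, a cytokine gene, read 396, 504 and 183 in replicates 1, 2 and 3, and the F test called it (adjusted p = 0.0416, limma). CYP1A2, a liver cytochrome P450, read 2385, 3385 and 4576, and its single arrays ranged from 2016 to 7174. CD3D, a subunit of the T-cell receptor complex, ranged over single arrays from 282 to 1356. In CD3D, CD8A and IL27 the second replicate was the highest and the third the lowest. In CD3D and IL27 the first array of the second replicate stood well above its sister arrays. That array also stood above its sisters in DEFB126 (3333 against 813 and 1454), OR5P3 (1470 against 426 and 315) and COL1A1 (420 against 143 and 213). Its mean correlation with the other arrays, 0.980, was the lowest of the 9. The replicate values of such genes rest in part on this array.

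The 51 probes over 60000 include 20 without a gene symbol, and 2989 of all probes with values carry none. Their transcripts are not analysed here.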
